A study of Mus musculus with 6 samples.

Results

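The genes described here encode class I phosphoinositide 3-kinase (PI3K) and the proteins that start or end its signal, in neutrophils sorted from mice with bile duct injury. They were chosen by name, and all 9 were found once each among the 53090 gene rows: Pik3ca, Pik3cb, Pik3cd and Pik3cg for catalytic subunits, Pik3r1, Pik3r5 and Pik3r6 for regulatory subunits, Pik3ap1 for an adaptor and Inpp5d for a lipid phosphatase. The study measured RNA in 3 libraries of liver neutrophils and 3 of blood neutrophils, and all the mice had eaten for 1 week a diet with 3,5-diethoxycarbonyl-1,4-dihydrocollidine (DDC), which injures the bile ducts. Strain, age and sex are not stated in the labels, and no group without DDC was analysed here, so the comparison is between sites and not between fed and unfed mice. The cells were taken by magnetic beads against Ly6G, after a Percoll gradient for liver and after red cell lysis for blood, so the preparation cannot be told apart from the site. The labels call the liver cells infiltrating.

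Class I PI3K adds a phosphate to a membrane lipid and so makes PIP3, which draws proteins with a PIP3-binding domain, such as the kinase AKT, to the inner face of the membrane. In neutrophils, chemoattractant receptors act through G proteins on the p110γ enzyme (Pik3cg), which works with p101 (Pik3r5) or p84 (Pik3r6). Receptors that signal through tyrosine kinases, such as integrins and Fc receptors, act on the class IA enzymes, in which p110α, p110β or p110δ is held by a p85-type subunit such as the product of Pik3r1. SHIP1, the product of Inpp5d, removes the 5-phosphate of PIP3 and so leaves another signalling lipid. These lipids are known for their part in neutrophil polarity, migration, oxidative burst and survival.

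In liver neutrophils, 5 PI3K subunit genes were lower than in blood neutrophils (Pik3cd, Pik3ca, Pik3cg, Pik3r5 and Pik3r6), by 1.84-fold to 2.88-fold, and the adaptor gene Pik3ap1 was 4.82-fold higher. Pik3cb, Pik3r1 and Inpp5d did not pass the test. A further fit left out liver 3, the liver library with the most Kupffer cell and macrophage markers. It also left out blood 1, the blood library with the most platelet and macrophage markers. The same 6 genes were called and Pik3cb was called lower as well. Kupffer cell and macrophage markers still summed to 776 and 610 CPM in liver 1 and 2, against 498 and 369 CPM in blood 2 and 3. That fit therefore does not test the part of such cells in the calls. Genes were called at an adjusted p under 0.05 by edgeR's quasi-likelihood test over 13458 genes, of which 31.6% were called, 17.4% higher and 14.2% lower in liver. The members gave 1 higher and 5 lower of 9 tested, with a median log2 fold change of -0.88, against 0.04 over all tested genes. In 8 of the 9 members the liver and blood libraries did not overlap, as they did not in 48.5% of all tested genes. In bulk RNA of this kind, fewer cells of a type and less RNA per cell cannot be told apart. All 9 passed the filter on low counts, with 430 to 11023 counts in each library.

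**Figure D1:**
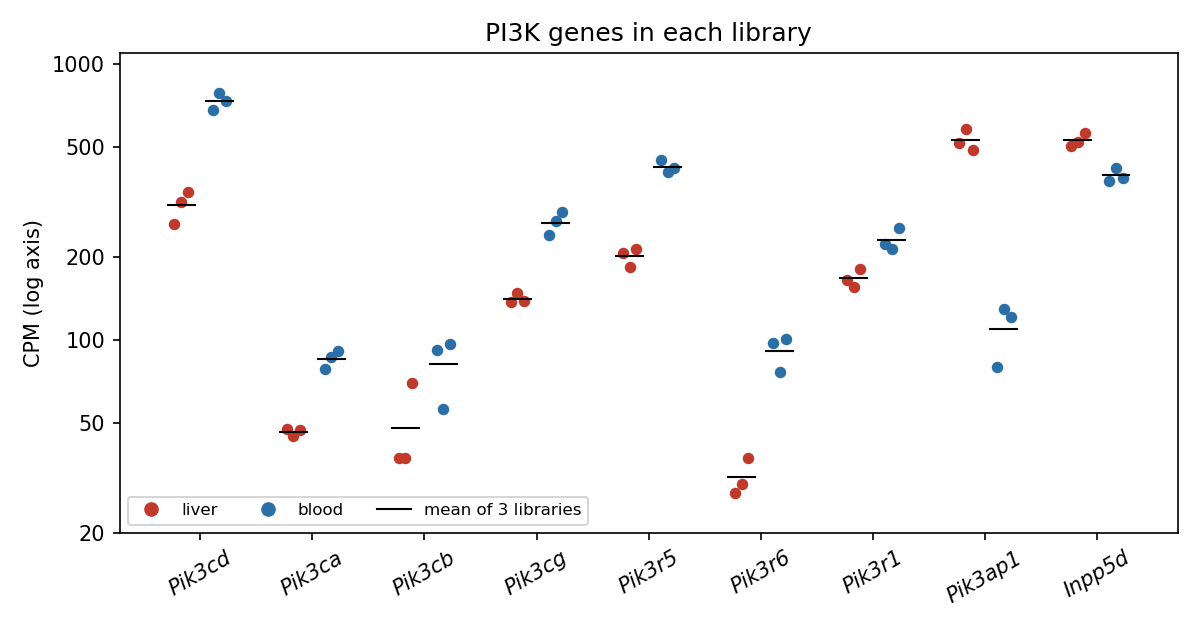
Level of each of the 9 genes in CPM (counts scaled to a common library size, log axis) in the 3 liver libraries (red, left) and the 3 blood libraries (blue, right), with the mean as a line. The groups are apart for every gene but Pik3cb, and liver lies above blood for Pik3ap1 and Inpp5d only.

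The libraries held 13778681 to 17579669 counts from liver and 13054673 to 14403803 from blood. Neutrophil markers were present throughout, at a summed 8110 to 14375 CPM in liver against 23400 to 34616 CPM in blood, with 9 of 10 called lower. The site also went with the markers of other cells. Kupffer cell and macrophage markers summed to 610 to 969 CPM in liver and 369 to 573 CPM in blood, with 6 of 12 tested called higher, and Clec4f and Marco were at 0 in blood 2 and blood 3. Monocyte markers summed to 2013 to 2682 CPM in liver and 1295 to 1554 CPM in blood, with 7 of 10 called higher. Hepatocyte markers summed to 17.6 to 234 CPM in liver and 1.28 to 6.04 CPM in blood, while platelet markers summed to 15.4 to 27.5 CPM in liver and 54.0 to 366 CPM in blood. Dendritic cell markers ran from 122 to 226 CPM in liver and 23.9 to 83.2 CPM in blood. Liver endothelial markers summed to 26.9 to 54.9 CPM in liver and 14.98 to 20.8 CPM in blood, with 5 of 7 tested called higher. Erythroid markers varied within each site, at 2068, 2730 and 143 CPM in liver 1, 2 and 3 and 33698, 14773 and 367 CPM in blood 1, 2 and 3, with 0 of 7 called. Mitochondrial genes took 8.997% to 12.5% of counts in liver and 4.30% to 6.69% in blood, and gene models that overlap ribosomal RNA took 1.15% to 2.70% in liver and 0.0923% to 0.447% in blood. With these rows left out no member's call changed. The part of these cells and of these RNA shares in the lower and higher calls was not tested.

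The catalytic genes were led by Pik3cd, which encodes p110δ, the catalytic subunit found mainly in white blood cells. It lies on chromosome 4 from 149649168 to 149702571 (minus strand, GRCm38). Pik3cd had 265, 318 and 344 CPM in liver 1, 2 and 3, against 686, 785 and 740 CPM in blood 1, 2 and 3. The highest liver library thus lay well below the lowest blood library, and the log2 fold change was -1.25 ± 0.20 (SE; adjusted p = 0.00193), a 2.39-fold difference. Pik3cg, on chromosome 12 from 32173473 to 32208659, had 138, 148 and 138 CPM in the liver libraries and 241, 270 and 291 CPM in the blood libraries. Its groups were tight and apart, with a log2 fold change of -0.92 ± 0.17 (adjusted p = 0.00412). Pik3ca, for the widely expressed p110α, had 47.6, 45.1 and 47.3 CPM in liver and 79.0, 86.9 and 91.6 CPM in blood. That was 1.84-fold lower in liver (adjusted p = 0.00485), with a spread between liver libraries of only 2.97% of their mean.

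Pik3cb, for p110β, was the least even member, with 37.5, 37.6 and 69.8 CPM in liver 1, 2 and 3, against 92.1, 56.5 and 96.8 CPM in blood 1, 2 and 3. Liver 3 lay above blood 2, so the groups overlapped. The spread was 38.5% of the mean in liver and 26.9% in blood, and with a log2 fold change of -0.76 ± 0.30 it was not called (adjusted p = 0.0814). It was called lower with the libraries paired by sample number (adjusted p = 0.0202), without liver 3 (adjusted p = 0.018, log2 fold change -1.13) and without blood 2 (adjusted p = 0.0383, -0.99). Its counts were partly fractional, so some of its reads were shared with other gene rows.

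The sum of the 4 catalytic genes per kb of exon was 78.0 ± 8.60 CPM per kb in liver and 170.3 ± 9.20 CPM per kb in blood (SD, n = 3 each). Per length, Pik3cd made up 61.2%, 64.7% and 63.7% of that sum in the liver libraries and 68.6%, 71.7% and 67.1% in the blood libraries. It was the largest share in each library, and smaller in every liver library than in any blood library, with a mean difference of -5.94 percentage points. Pik3cg took 21.7% ± 2.38 in liver and 18.6% ± 0.866 in blood, with Pik3cb at 8.48% and 6.72% and Pik3ca at 6.65% and 5.55%. Within a library the log2 ratio of Pik3cd to Pik3cg counts was 1.12 ± 0.19 in liver and 1.47 ± 0.10 in blood, with no overlap. An exact two-sided permutation test gave p = 0.1 for the ratio and for the Pik3cd share, the smallest p that 3 against 3 libraries allow.

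**Figure D2:**
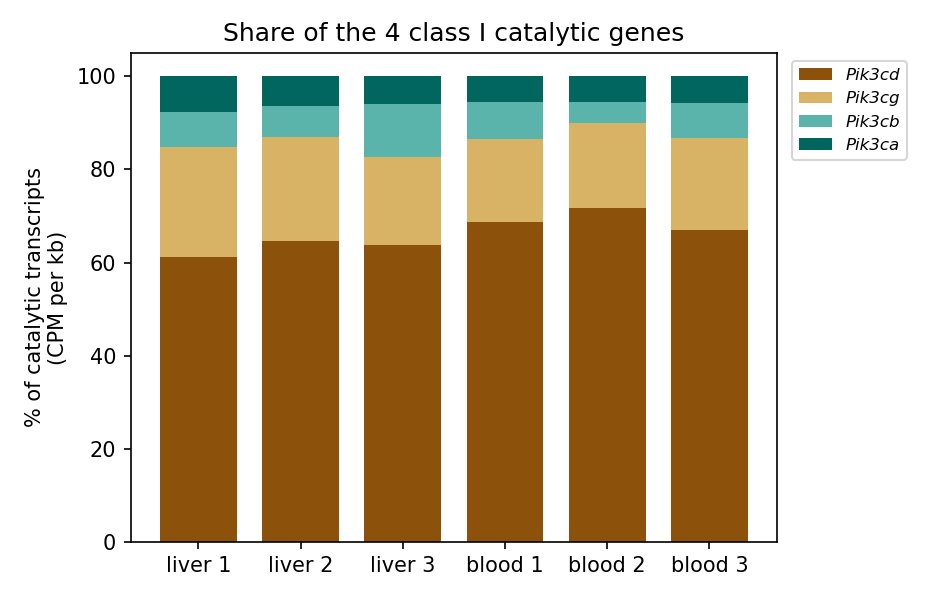
Share of Pik3cd, Pik3cg, Pik3cb and Pik3ca in the summed level (CPM per kb of exon, in percent) of the 4 class I catalytic genes, for each liver library (left) and each blood library (right). Pik3cd fills 61.2% to 64.7% of the bar in liver and 67.1% to 71.7% in blood.

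Both regulatory genes of the p110γ enzyme were lower in liver. They are neighbours on the plus strand of chromosome 11, Pik3r5 from 68432121 to 68497849 and Pik3r6 from 68503019 to 68552698, with 5169 bases between them. Pik3r5, for p101, which couples the enzyme to G protein βγ subunits, had 208, 185 and 215 CPM in the liver libraries and 450, 407 and 421 CPM in the blood libraries. Its log2 fold change was -1.07 ± 0.18 (adjusted p = 0.00238). Pik3r6, for p84, the alternative partner through which p110γ depends more on Ras, had 28.1, 30.1 and 37.4 CPM in liver against 97.5, 76.7 and 101 CPM in blood. It had the largest fall among the members, 2.88-fold (log2 fold change -1.53 ± 0.20, adjusted p = 0.000966). The log2 ratio of Pik3r5 to Pik3r6 counts was 2.68 ± 0.19 in liver and 2.22 ± 0.17 in blood, every liver library above every blood library (exact two-sided permutation p = 0.1, the smallest possible). The ratio of Pik3r5 to Pik3cg counts overlapped between the groups, at 0.52 ± 0.17 in liver and 0.68 ± 0.20 in blood on the log2 scale (exact permutation p = 0.6). Adjusted over the 4 relations compared within libraries, the exact permutation p of 0.1 became 0.133 for 3 of them.

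Pik3r1, for the p85α family of subunits that hold class IA catalytic subunits, is on chromosome 13 from 101680563 to 101768217. It had 165, 156 and 182 CPM in liver 1, 2 and 3 and 223, 215 and 256 CPM in blood 1, 2 and 3. The groups did not overlap, but at a log2 fold change of -0.46 ± 0.17 the gene was not called (adjusted p = 0.0679, 95% interval -0.85 to -0.08). With the libraries paired by number it was called lower at the same size (adjusted p = 0.0257). Per length, the ratio of Pik3r1 to the summed Pik3ca, Pik3cb and Pik3cd was 0.274 ± 0.0314 in liver and 0.166 ± 0.0150 in blood. Every liver library was above every blood library in that ratio, which was chosen after its values were seen and was not tested.

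Pik3ap1 encodes BCAP, an adaptor first described in B cells that binds p85 through phosphorylated tyrosines and also acts in Toll-like receptor signalling in macrophages. It lies on chromosome 19 from 41272377 to 41385102 on the minus strand. Pik3ap1 had 518, 584 and 491 CPM in liver 1, 2 and 3, against 80.0, 130 and 121 CPM in blood 1, 2 and 3. Each liver library was several times above each blood library, and the log2 fold change was 2.27 ± 0.23 (adjusted p = 0.000325). It ranked 96 among the 13458 genes by p. It was the only member called higher, and its log2 fold change stayed between 2.04 and 2.38 over the 16 alternatives tried. B and plasma cell markers summed to 69.4 to 82.7 CPM in liver and 57.3 to 284 CPM in blood, with 0 of 9 tested called higher and 2 lower. Jchain, too low to be tested, had 3, 1 and 1 counts in liver 1, 2 and 3 and 0 in blood. Csf1r, which was not called, made up the largest part of the Kupffer cell and macrophage sum, at 292 to 401 CPM in liver and 287 to 351 CPM in blood. Among the liver libraries, Kupffer cell and macrophage markers were highest in liver 3, which had the least Pik3ap1. Among the blood libraries they were highest in blood 1, which had the least Pik3ap1 too, and whether such cells contribute to the rise was not tested. Without liver 3 and blood 1 the log2 fold change of Pik3ap1 was 2.11 (adjusted p = 0.00305). The summed Kupffer cell and macrophage markers stayed higher in liver in that fit, so it does not test such a contribution.

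Inpp5d, for SHIP1, lies on chromosome 1 from 87620312 to 87720507 on the plus strand. It had 506, 524 and 566 CPM in the liver libraries and 379, 422 and 388 CPM in the blood libraries. The groups did not overlap, yet at a log2 fold change of 0.42 ± 0.18 the gene was not called (adjusted p = 0.1, 95% interval 0.02 to 0.83). With the libraries paired by number it was called higher at the same size (adjusted p = 0.0444). Per length, Inpp5d stood at 0.902 ± 0.0544 of the summed catalytic genes in liver and 0.307 ± 0.0149 in blood. Every liver library was above every blood library in that ratio, which was picked with its values known and has no test.

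**Figure D3:**
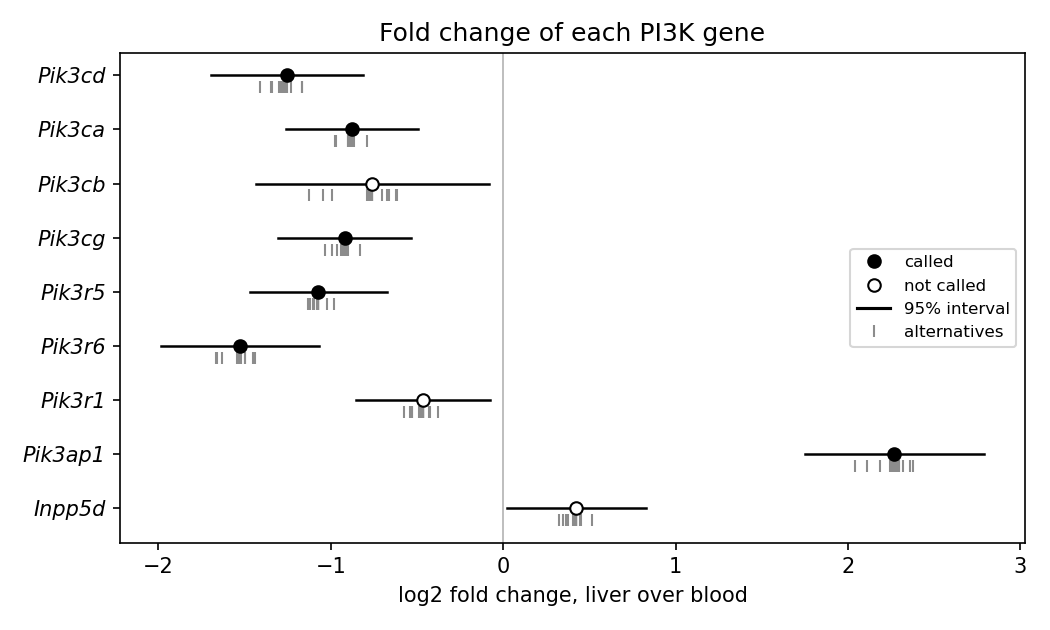
Log2 fold change of liver over blood for the 9 genes (points, filled where called) with its 95% interval (line), and the value under each of 16 alternatives (grey ticks). Only Pik3ap1 and Inpp5d lie right of 0, and no tick crosses 0 for any of the 9 genes.

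Across the members, the order of the levels per kb of exon differed between the sites. In liver neutrophils Pik3ap1 was highest at 95.3 ± 8.60 CPM per kb, followed by Inpp5d at 70.0 ± 4.02, Pik3cd at 49.3 ± 6.44 and Pik3r5 at 36.5 ± 2.82. Pik3cg and Pik3r1 followed at 16.8 ± 0.680 and 16.6 ± 1.28 CPM per kb and could not be ordered, nor could Pik3r6, Pik3cb and Pik3ca at 8.79 ± 1.35, 6.71 ± 2.59 and 5.14 ± 0.153, in which neighbours overlapped. In blood neutrophils Pik3cd was highest at 118 ± 7.93 CPM per kb, then Pik3r5 at 76.8 ± 4.03, Inpp5d at 52.1 ± 3.00 and Pik3cg at 31.7 ± 2.96. Pik3r6, Pik3r1 and Pik3ap1 came next at 25.3 ± 3.64, 22.9 ± 2.13 and 19.8 ± 4.76 CPM per kb, with overlap between neighbours, and Pik3cb and Pik3ca were lowest at 11.4 ± 3.07 and 9.45 ± 0.704. By its mean Pik3ap1 thus held rank 1 in liver and rank 7 in blood, where ranks 5 to 7 overlapped and could not be ordered. With the length of the longest transcript in place of all exons, Pik3r6 and Pik3r1 changed places in blood, at 28.3 and 32.5 CPM per kb. By that length Inpp5d lay above Pik3ap1 in liver 3, so these genes overlapped in liver and could not be ordered there.

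**Figure D4:**
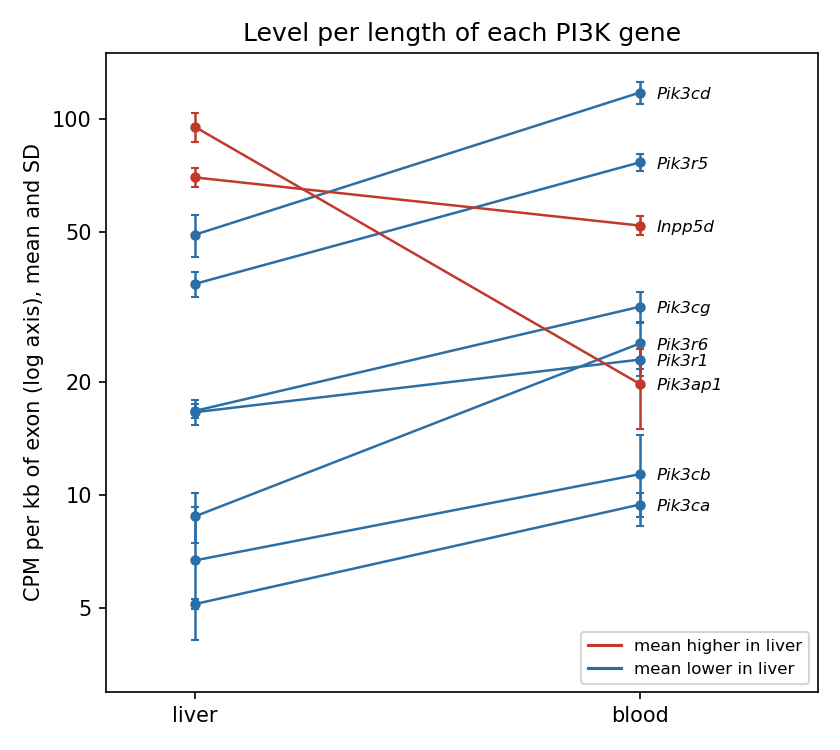
Mean level of each gene in CPM per kb of exon (log axis) in liver (left) and blood (right), with the SD over 3 libraries, joined by a line that is red where the mean is higher in liver. By the means, Pik3ap1 crosses other genes, with rank 1 in liver and rank 7 in blood, while Pik3cd has rank 3 in liver and rank 1 in blood. The genes at ranks 5 to 7 in blood overlap.

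The promoter windows of the members (RefSeq, GRCm38.p6, 250 bases before to 50 after an annotated start) were available for 8 of 9 genes, in 12 windows of 300 bases. They were searched on both strands for 4 short motifs of factors active in myeloid cells. GAGGAAGT, a form of the site of PU.1, a transcription factor of blood cell development, was in the window of Inpp5d and in both windows of Pik3cg. These 2 windows overlap and share the match. It was in 3.20% of all 32851 windows of that length. The AP-1 site TGANTCA was in the window of Pik3ca and in 7.81% of all windows. The FOXO site GTAAACA was in 1 of the 2 windows of Pik3cg and in 3.65% of all windows. The NF-kB core GGANTTTCC was in none of the 12 and in 1.25% of all windows. The windows of Pik3ap1, Pik3cb, Pik3cd, Pik3r1 and Pik3r5 held none of the 4. A match is a description of the letters and not a measured site. For Pik3cg, called lower in liver, the window without the FOXO site is shown, with that of Inpp5d, not called. Both hold the PU.1 letters (in capitals, on the minus strand of the window for Pik3cg). The window of Pik3ap1, the gene called higher, holds none and is shown beside them. The windows shown are Pik3cg at chr12:32208610-32208909 (minus strand), Inpp5d at chr1:87620062-87620361 (plus strand) and Pik3ap1 at chr19:41385053-41385352 (minus strand).
Pik3cg: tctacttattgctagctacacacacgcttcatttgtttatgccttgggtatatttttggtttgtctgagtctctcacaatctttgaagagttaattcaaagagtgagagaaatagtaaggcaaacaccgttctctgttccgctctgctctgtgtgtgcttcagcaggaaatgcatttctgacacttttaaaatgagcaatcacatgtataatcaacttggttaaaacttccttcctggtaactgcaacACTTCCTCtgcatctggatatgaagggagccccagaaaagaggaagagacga
Inpp5d: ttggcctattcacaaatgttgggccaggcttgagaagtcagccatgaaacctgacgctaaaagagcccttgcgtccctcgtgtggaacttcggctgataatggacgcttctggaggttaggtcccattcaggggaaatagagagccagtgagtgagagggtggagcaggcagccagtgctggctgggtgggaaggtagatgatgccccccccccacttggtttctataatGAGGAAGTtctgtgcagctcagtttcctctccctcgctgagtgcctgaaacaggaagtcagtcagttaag
Pik3ap1: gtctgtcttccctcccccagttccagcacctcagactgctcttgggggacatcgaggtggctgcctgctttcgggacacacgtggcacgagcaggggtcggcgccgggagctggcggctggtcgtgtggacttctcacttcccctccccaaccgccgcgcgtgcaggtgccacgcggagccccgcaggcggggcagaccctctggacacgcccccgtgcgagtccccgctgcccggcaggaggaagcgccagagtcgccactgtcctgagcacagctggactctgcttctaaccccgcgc

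In these windows the GC content was 40.7% for Pik3cg, 53.7% for Inpp5d and 69.7% for Pik3ap1, with 4, 6 and 26 CpG pairs. The members called lower did not share a composition: the 3 windows of Pik3cd had 51.0%, 68.0% and 54.0% GC and that of Pik3r5 had 62.0%.

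The wider phosphoinositide pathway was covered by 4 further lists with 125 genes in all, of which 121 were tested. In liver neutrophils 30 were called lower and 5 higher, with a median log2 fold change of -0.25, beside the 14.2% and 17.4% of all genes. Paired by number, 44 were called lower and 7 higher, beside 17.2% of all tested genes called lower in that fit. Without liver 3 and blood 1, 16 were called lower and 5 higher, beside 8.73% of all genes called lower. Without liver 1, 19 were called lower, beside 9.38% of all genes. For the counts per list below, the share of all genes called lower was 11.3% without liver 2 or liver 3. It was 10.8% without blood 1, 11.2% without blood 3 and 12.2% with upper quartile scaling.

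**Figure D5:**
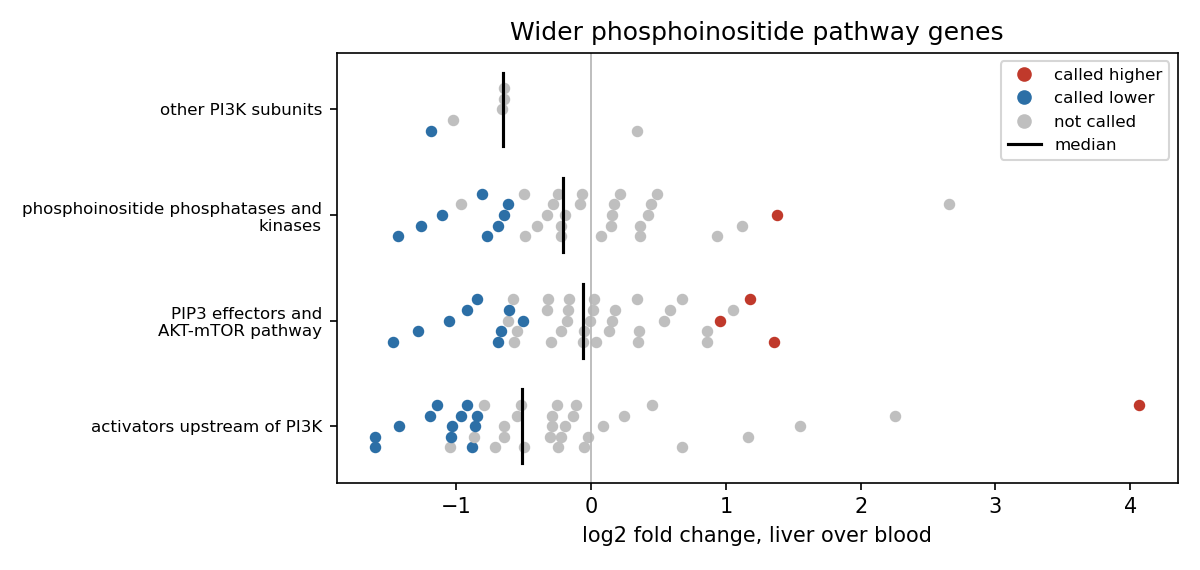
Log2 fold change of liver over blood for the tested genes of 4 pathway lists, coloured where called (red higher, blue lower), with the median of each list as a line. The blue points lie between -1.61 and -0.51, and the red point at the far right, at 4.07, is Gab1.

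Among other PI3K subunits, 0 of 6 tested were called higher and 1 lower, Pik3ip1, which encodes a membrane protein that inhibits PI3K. Pik3ip1 had 39.2, 38.0 and 60.7 CPM in liver 1, 2 and 3, against 143, 53.3 and 118 CPM in blood 1, 2 and 3. Liver 3 lay above blood 2, and the call (adjusted p = 0.0335) was lost when liver 1, liver 2, blood 1 or blood 3 was left out (0.0668 to 0.108) and without both liver 3 and blood 1 (0.0592). Pik3c3, the class III kinase of autophagy and endosomes, was not called at a log2 fold change of -0.66 (adjusted p = 0.0991), though it was called lower with paired libraries (adjusted p = 0.0461) and without liver 3 (adjusted p = 0.0403). Pik3r2, for p85β, had a log2 fold change of -0.65 (adjusted p = 0.0845) and has a second row with identical values, so its reads were split between rows. With these rows added together Pik3r2 was called lower (adjusted p = 0.0457). With paired libraries 4 of the list were called lower, without liver 3 this was 3, and without liver 2, blood 1 or blood 3 it was 0.

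Among phosphatases and kinases of phosphoinositides, 1 of 34 tested was called higher and 8 lower, with a median of -0.21. Inpp4a, which removes a phosphate from the lipid that SHIP1 makes, was 2.39-fold lower, at 72.3, 97.7 and 95.3 CPM in liver and 186, 217 and 232 CPM in blood (adjusted p = 0.00177). Inpp5k, another 5-phosphatase, was 1.71-fold lower, and the lipid kinase genes Pip5k1b and Pip4k2a were 2.70-fold and 1.62-fold lower. Pip5k1b and Pip4k2a were not called without both liver 3 and blood 1 (adjusted p = 0.0626 and 0.0971). Mtmr3, for a 3-phosphatase, was 1.76-fold lower, a call lost without liver 1 or liver 2 (adjusted p 0.055 to 0.0597). Inppl1, for SHIP2, the relative of Inpp5d, had 10.3, 13.9 and 12.7 CPM in liver and 4.10, 1.75 and 0 CPM in blood. Its groups were apart, but it did not pass the test (adjusted p = 0.088), and it was called higher without blood 1 (adjusted p = 0.0356, log2 fold change 3.82), without blood 3 (adjusted p = 0.0122, 2.02) and by limma-voom on all 6 libraries (adjusted p = 0.0209, 4.43). Of the list, 2 were called higher with paired libraries and also when liver 2, blood 1 or blood 3 was left out. Without liver 1, 5 were called lower, and without both liver 3 and blood 1, 0 were called higher and 5 lower.

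Among PIP3 effectors and the AKT-mTOR pathway, 3 of 41 were called higher and 9 lower, with a median of -0.06. Prex1, a Rac activator switched on by PIP3 and Gβγ, had 630, 561 and 654 CPM in liver and 1221, 1295 and 1320 CPM in blood, 2.08-fold lower (adjusted p = 0.00396). Arap3, which PIP3 recruits to act on small GTPases, was 2.44-fold lower, and Btk, a PIP3-binding tyrosine kinase, was 1.80-fold lower. Eif4ebp1, a repressor of translation under mTOR, was 2.78-fold lower. Akt1 was 1.59-fold lower (adjusted p = 0.0356), a call lost when liver 1, liver 3, blood 2 or blood 3 was left out (0.0685 to 0.118), without both liver 3 and blood 1 (0.0542) and with upper quartile scaling (adjusted p = 0.0544). The called rises included Sgk1, for a kinase related to AKT, at 154, 81.1 and 128 CPM in liver and 42.6, 37.8 and 61.5 CPM in blood, 2.55-fold higher (adjusted p = 0.00629, and 0.0559 without liver 3 and blood 1). Cyth1, an Arf activator that binds PIP3, was 2.26-fold higher. Of the list, 5 were called lower without liver 1, without liver 3 or with upper quartile scaling, 4 without both liver 3 and blood 1, and 13 with paired libraries, in which 4 were called higher.

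In the list of activators upstream of PI3K, 1 of 40 tested was called higher and 12 lower, with a median of -0.51. This list is mixed, since it also holds the ubiquitin ligase genes Cbl and Cblb and the inhibitory receptor genes Pirb and Sirpa. Cbl and Pirb were among the 12 called lower, so that count is not one of activators alone. Rasgrp2, for an activator of Rap, was 3.05-fold lower, at 49.6, 44.4 and 48.2 CPM in liver and 150, 146 and 138 CPM in blood (adjusted p = 0.000353). Its p tied with that of another row, so its reads may be split between rows and its CPM may be too low. With rows of a repeated symbol added together its log2 fold change was -1.61 (adjusted p = 0.000353). The receptor genes Cxcr2 and Fpr1, whose products signal through Gi to p110γ, were 3.04-fold and 2.69-fold lower, and Gnb2 and Gng2, for G protein β and γ subunits, were 1.85-fold and 1.90-fold lower. The Gnb2 call was lost without both liver 3 and blood 1 (adjusted p = 0.0647). Cbl, for a ubiquitin ligase that binds p85, was 2.05-fold lower. The gene called higher, Gab1, a docking protein for p85, was named after its value was seen, and had 39.4, 19.2 and 26.8 CPM in liver against 3.74, 1.05 and 0.269 CPM in blood (adjusted p = 0.00809). Of the list, 2 were called higher when liver 2, liver 3 or blood 1 was left out, and 3 higher and 7 lower without both liver 3 and blood 1. With paired libraries 18 were called lower and 1 higher. Cxcr2 and Csf3r of this list are also in the neutrophil marker list.

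The genes most like Pik3cd over the 6 libraries, among 6291 named protein-coding genes with at least 10 CPM on average, were Hp1bp3, Paxx and Sh2b1, each with a Pearson r of 0.999 on log2(CPM + 1). The genes most like Pik3ap1 were Pdhb (r = 0.995), Itpkc (0.994) and Cstb (0.994). Itpkc, which encodes a kinase of the soluble inositol trisphosphate, had means of 49.2 CPM in liver libraries and 14.1 CPM in blood libraries, and Cstb, for the protease inhibitor cystatin B, 77.3 CPM and 11.2 CPM. With 2 sites and 6 libraries such values follow the gap between the sites, and no p was computed.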

How the data were processed

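RNA of Ly6G-selected liver and blood neutrophils (3 libraries each) was read with a stranded total-RNA kit, per the labels. The deposited expected counts per gene come from STAR and RSEM on GRCm38, per the submitters' processing notes (FastQC 0.11.5); tool versions, filters and the strand setting of counting were not given in the sources. Expected counts were rounded. Genes were filtered with filterByExpr (minimum count 10, total 15), scaled with TMM and tested, liver over blood, with edgeR 4.0.16 (R 4.3.3), robust quasi-likelihood, Benjamini-Hochberg adjusted over all tested genes. The gene test was tested on simulated data first. CPM uses TMM-scaled sizes, on which 3 counts are 0.181 to 0.263 CPM. Exon lengths and coordinates are from GENCODE M21, which matched 98.9% of rows.

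The members, lists and ratios were chosen with earlier results of these data known. All members are named, with up to 6 called, non-overlapping genes of smallest p per list with a mean of at least 10 CPM, and 6 fixed genes, 1 of which is not reported here. The titles number the samples 1 to 3 in each group. Deviations from the group means over tested genes correlated at 0.10, 0.25 and 0.11 for same-numbered pairs, so a paired fit (replicate block) is given where it changes a call; the labels do not say that a pair is 1 mouse. Liver 3 with blood 1 correlated at 0.10 too. Nothing but the stated n says that libraries are separate mice, and p-values cover the spread between these libraries, which may be technical. Alternatives used DESeq2 1.42.0, limma 3.58.1, other scaling and filters, and fewer libraries.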

Additional observations from a re-analysis of the deposited data

How the results depend on the processing

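The 6 called members kept their direction and their call in all 16 alternatives, and no member changed sign in any. Pik3cb was called at -0.78 with no low-count filter and at -0.78 with the replicate block, and ran from -1.13 to -0.62 with single libraries left out and to -1.05 without liver 3 and blood 1. The replicate block also called Pik3r1 (-0.46) and Inpp5d (0.42), and changed no other member's call. Wider pathway genes called higher were 8 with DESeq2, beside 2686 of all 13458 tested. With 1 library left out they were 4 to 7, beside 1732 to 1993 of all. Those called lower were 44 with the replicate block, 36 with DESeq2 and 34 with limma-voom, beside 17.2%, 16.5% and 14.7% of all tested genes. With no filter 37 were called lower and with upper quartile scaling 24, beside 8.33% and 12.2%. With 1 library left out 19 to 27 were called lower, beside 9.38% to 11.3%. Without liver 3 and blood 1 there were 16, beside 8.73%. Over all genes, 1323 to 1626 were called lower with 1 library left out and 1195 without liver 3 and blood 1. Within-library ratios kept their direction in each setting; without single libraries the Pik3cd share differed by -6.98 to -4.65 points. Upper quartile scaling put the median of all genes at 0.13 in place of 0.04. Each member had 430 or more counts in every library, so depth kept none from being tested. The design cannot separate site from preparation, and the exact permutation test of the ratios cannot go below p = 0.1.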
